A study of Drosophila melanogaster with 4 samples.

Results

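Dorsal rim inner photoreceptors are the R7 and R8 cells in the row of ommatidia along the dorsal edge of the *Drosophila* eye. An ommatidium holds 8 photoreceptors, of which R7 and R8 occupy the centre. Elsewhere in the eye most R7 cells express the ultraviolet opsin *Rh3* or *Rh4*, and some R7 cells of the dorsal part express both. An R8 there expresses *Rh5* or *Rh6*, whereas in the dorsal rim area (DRA) R7 and R8 both express *Rh3*. The homeodomain protein Homothorax (Hth) specifies this fate, and the rim serves the detection of polarized skylight.

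Rim cells were picked from droplet-based single-cell RNA sequencing (scRNA-seq) of whole wild-type *Canton-S* eyes. Single libraries came from males aged 1, 3 and 7 days and from females aged 1 day, each a pool of 40 eyes dissociated with collagenase in the presence of the transcription inhibitor Actinomycin D. With a single library per age and sex, ages and sexes could not be tested. The contrasts between cell groups used the 4 libraries as replicates. Their p-values thus measure how the difference between groups varies over libraries that differ in age or sex. The adults carry no transgene or mutation, and position in the eye was not recorded, so the dorsal origin of a cell rests on its genes alone.

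A rim cell had at least 1% of its UMIs (unique molecular identifiers, which mark single captured RNA molecules) from *Rh3*, and at least 80% of its *Rh3*, *Rh4*, *Rh5* and *Rh6* UMIs from *Rh3*. It had at least 2 *hth* UMIs, under 5% *ninaE* (the R1-6 opsin) and under 2% *Pdh* (a pigment cell gene). Cells with more than 200 genes and under 20% mitochondrial UMIs were considered. The comparison group was the *Rh3* cells of the same limits without an *hth* UMI, called *hth*-zero *Rh3* cells here. Outside the rim, *Rh3* is the opsin of R7 cells of the pale type of ommatidium. Dorsal R7 cells with both *Rh3* and *Rh4* are not fully excluded by the limit of 80%.

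There were 115 rim cells among 34606 cells kept. The 1-day, 3-day and 7-day male libraries gave 41, 20 and 22, and the female library 32. They made up 10.9% of the 1051 *Rh3* cells (exact Clopper-Pearson 95% interval 9.12 to 12.99%, which covers counting error only). By library the share was 13.4% at 1 day, 9.71% at 3 days, 7.69% at 7 days and 12.6% in females, and the 4 intervals overlapped. A further 30 *Rh3* cells had 1 *hth* UMI and entered neither group, and 906 were *hth*-zero.

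The libraries held 17654226 to 98373676 UMIs, lowest at 7 days, with 6335 to 16275 barcodes. The rim sums held 333145, 129858, 88229 and 438366 UMIs in the 1-day, 3-day, 7-day male and female libraries. The median rim cell was deeper than the median *hth*-zero *Rh3* cell in each library, by 8305 against 6430.5, 7354 against 4900, 3771 against 2863 and 14426.5 against 11492 UMIs in that order. Libraries shared 140 cell barcodes over all pairs, and none belonged to a rim cell.

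Few rim cells sat at the limit of the *hth* rule. Of the 115, 8 had 2 *hth* UMIs, 7 had 3, 4 had 4, and 96 had 5 or more, with a median of 12 and a maximum of 50. *Rh3* cells with 2 or more *hth* UMIs were far more frequent than such cells of other inner opsins, at 0.551% of *Rh4* cells, 0.409% of *Rh6* cells and 0 of 178 *Rh5* cells, which allows a share of up to 2.05%. R1-6 cells gave 0.178% at a median of 4986.5 UMIs, whereas pigment cells gave 3.76% at a median of only 1767.5 UMIs. Cells just outside and just inside the limit were shallow, with a median of 1101.5 UMIs at 1 *hth* UMI and 1862 at 2 to 4, against 8404 at 5 or more. When *Rh3* cells with at least 2000 UMIs were thinned to that depth, the rim share was 12.8%, 9.80%, 9.78% and 10.6% in the 1-day, 3-day, 7-day male and female libraries.

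**Figure D1:**
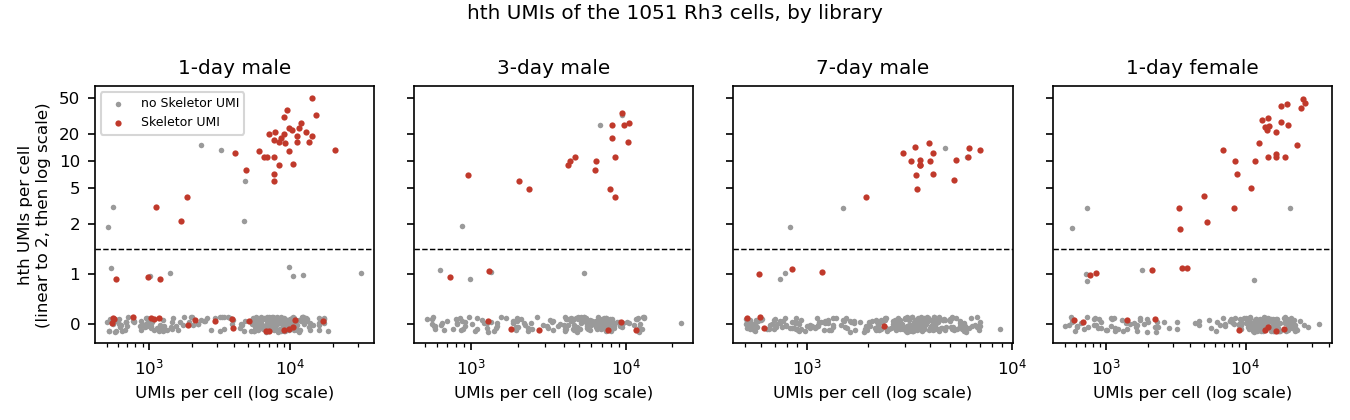
*hth* UMIs (vertical axis, linear to 2 and then logarithmic) against total UMIs per cell (horizontal log axis) for the 1051 *Rh3* cells, in 1 panel per library; red points have a *Skeletor* UMI and the dashed line separates rim cells from the rest. Most of the 115 rim cells lie well above the line and are red, while most of the 906 *hth*-zero cells are grey.

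*Skeletor*, which encodes a chromosomal and spindle matrix protein, marked the rim cells in every library. A *Skeletor* UMI was present in 99 of 115 rim cells and in 39 of 906 *hth*-zero *Rh3* cells. Whether these 39 include rim cells in which no *hth* UMI was captured was not tested. In 12352 R1-6 cells the share was 0.146%, at a lower median depth than that of the rim cells. Its summed level in the rim was 1792, 1725, 1564 and 1597 CPM (UMIs of the gene per 1000000 UMIs of the summed cells) in the 1-day, 3-day, 7-day male and female libraries, and 32.2, 8.67, 13.5 and 10.2 CPM in *hth*-zero *Rh3* cells. The groups did not overlap, and the rim level varied little (mean 1669 ± 107 CPM, SD, n = 4). The log2 fold change was 6.68 ± 0.20 (SE; adjusted p = 1.0e-12, edgeR quasi-likelihood test), or 102-fold. The study put *Skeletor* forward as a rim marker from these same libraries, so its height here is not independent evidence. Around the limit of the rule *Skeletor* was at 16.8 CPM in cells with 0 *hth* UMIs, 290.3 with 1, 921 with 2 to 4 and 1736 with 5 or more. Single cells weigh in the step from 2 to 4, where 1 female cell held 27 of 66 *Skeletor* UMIs.

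Marker lists of other cells overlapped between the rim and the comparison sums. The pigment list of 5 genes summed to 153 to 1360 CPM in rim cells and 396 to 1742 CPM in *hth*-zero *Rh3* cells. The glial list of 4 reached 42.0 CPM in the rim and 14.2 CPM in the comparison, with *alrm* at 0. The list of 5 genes of other neurons was at 15.01, 0, 0 and 91.2 CPM in the rim and 74.0, 74.8, 36.5 and 11.1 CPM in the comparison, so the rim was higher in the female library alone, with *VGlut*, *Gad1* and *ap* at 0 in the rim. *wrapper* of primary pigment cells, *CG5597* of cone cells and the haemocyte genes *Hml* and *He* were at 0 in the rim, and the 3 cone genes summed to at most 27.0 CPM. The ocellar opsin *Rh2* and *Rh7* together were at 93.5 CPM in the female rim sum against 10.7 CPM in its partner, and at most 11.3 CPM in the male rim sums against 16.2 to 50.6 CPM. The part of either list in the results was not tested. *fne*, of neurons other than photoreceptors, had a UMI in 4 rim cells and *repo* or *moody*, of glia, in 1.

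Against *hth*-zero *Rh3* cells, 57 genes rose in the rim and 62 fell at an adjusted p under 0.05 and at least 2-fold, which is 1.72% and 1.87% of the 3320 genes tested. The genes of the gate were fitted but not counted. Of the 57 and 62, 54 and 59 differed in the same direction in all 4 libraries. The rim and comparison sums did not overlap for 43 and 46 of them, against 2.71% and 3.52% of all genes tested. The median log2 fold change over all genes was -0.01. With comparison cells matched to the depth of the rim cells, 60 genes were higher and 57 lower.

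**Figure D2:**
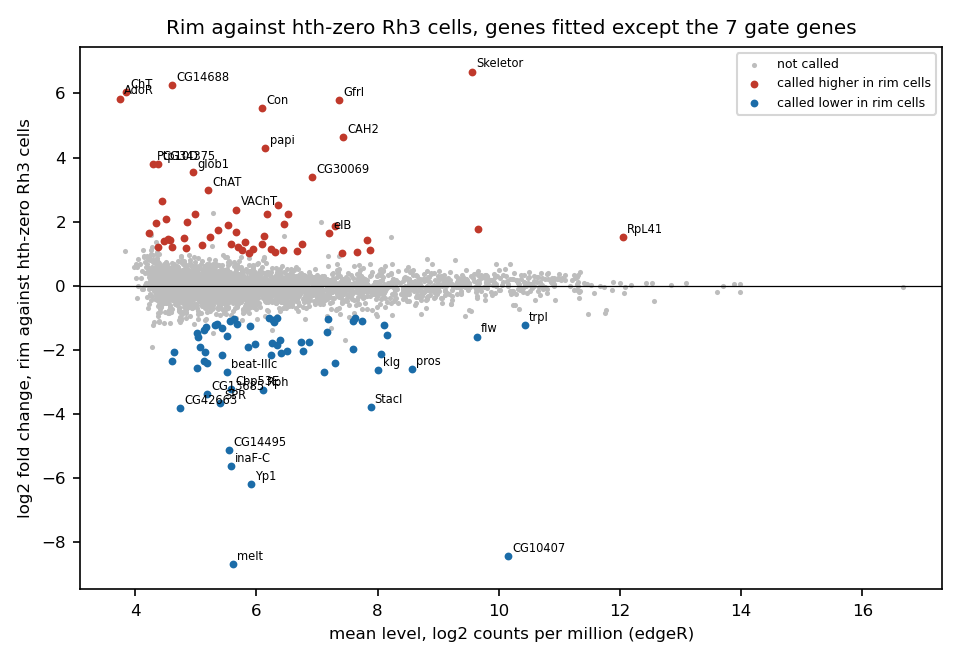
Log2 fold change of summed counts in rim cells against *hth*-zero *Rh3* cells (vertical axis) against mean level in log2 CPM (horizontal axis), 1 point per gene, red and blue for the 57 higher and 62 lower genes. *Skeletor* stands out at a high level and a high fold, and most highly expressed genes lie close to 0.

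After *Skeletor*, the largest rises were those of *CG14688*, *ChT*, *AdoR*, *Gfrl*, *Con* and *CAH2*. *Gfrl*, a receptor like those for glial cell line-derived neurotrophic factor, stood at 501, 439, 589 and 374 CPM in the 4 rim sums (the library order is kept below) and at 10.1, 7.59, 17.6 and 3.12 CPM in *hth*-zero *Rh3* cells. Its log2 fold change was 5.79 ± 0.23 (adjusted p = 4.0e-11). *Con* encodes Connectin, a homophilic cell adhesion protein with leucine-rich repeats. It was at 192, 169, 306 and 251 CPM in the rim and between 2.23 and 7.59 CPM in the comparison, for a log2 fold change of 5.53 ± 0.29. *AdoR*, the adenosine receptor, was at 23.1 to 61.6 CPM against at most 1.35 CPM (5.84 ± 0.49). For each of these genes every rim library lay above every comparison library.

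*CAH2*, a carbonic anhydrase, was at 486, 362, 272 and 550 CPM in rim cells and 30.3, 22.8, 12.2 and 7.57 CPM in *hth*-zero *Rh3* cells (log2 fold change 4.65 ± 0.29, adjusted p = 1.0e-08). Pigment cells held more of it still, at a mean of 2778 CPM, while the pigment list was higher in the rim than in its partner at 7 days (1020 against 855 CPM) and lower in the other libraries. *papi*, a Tudor-domain protein of the piRNA pathway, was at 125 to 255 CPM against 4.06 to 18.3 CPM (4.29 ± 0.23). *Ptp10D*, a receptor tyrosine phosphatase, rose by 3.79 ± 0.36 and *glob1*, a haemoglobin, by 3.53 ± 0.29. The genes *CG14688*, *CG34375* and *CG30069* had log2 fold changes of 6.27 ± 0.41, 3.80 ± 0.34 and 3.38 ± 0.21.

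*CG14688* is a neighbour of both *hth* and *Skeletor*. On chromosome 3R of dm6, *hth* occupies 10507561 to 10639568 on the minus strand and *Skeletor* 10686943 to 10696270 on the plus strand, with 47.4 kb between them. Only 2 annotated genes lie wholly in this gap, *CG6465* (10675560 to 10677251) and *CG14688* (10677737 to 10680925), both on the minus strand like *hth*. *CG14688* was at 45.0, 46.2, 102 and 155 CPM in the rim, from 15, 6, 9 and 68 UMIs, and at 0, 1.08, 1.35 and 1.78 CPM in *hth*-zero *Rh3* cells. In the other inner cells without *hth* it was at 0 in each *Rh4* and *Rh5* library and reached 0.667 CPM in *Rh6* cells. *CG6465* was too low to test, with 4 UMIs in the 4 rim sums and 2 in the larger *hth*-zero *Rh3* sums. *MED7*, which lies beyond *Skeletor* within 100 kb, had a log2 fold change of -0.02 (adjusted p = 1.0). This arrangement was noticed after the values were seen and is given as a description, and overlap of transcripts beyond the annotation was not tested.

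Genes of acetylcholine release were higher in rim cells. Fly photoreceptors use histamine as transmitter, and R8 cells are known to use acetylcholine too. *ChAT*, which makes acetylcholine, was at 99.1, 92.4, 113 and 105 CPM in rim cells and 18.96, 14.1, 10.8 and 8.01 CPM in *hth*-zero *Rh3* cells (log2 fold change 2.99 ± 0.28, adjusted p = 2.0e-06). *VAChT*, the vesicular acetylcholine transporter, was at 138, 92.4, 102 and 114 CPM against 39.8, 33.6, 17.6 and 8.01 CPM (2.37 ± 0.31, adjusted p = 6.7e-05). *ChT*, the choline transporter, was at 45.0, 92.4, 56.7 and 57.0 CPM against at most 1.35 CPM (6.05 ± 0.49, adjusted p = 3.4e-07). Rim and comparison did not overlap in any of the 3. *VAChT* lies within *ChAT* on the same strand, over 13416 bases, so UMIs may be divided between them by the counting.

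UMIs of the pair outside the rim traced to few cells. When the 5 rim cells and 31 *hth*-zero *Rh3* cells with a UMI of *fne*, *repo* or *moody* were left out, *ChAT* had 83 UMIs in 110 rim cells and 0 in 875 *hth*-zero *Rh3* cells, so it was at least 157-fold higher (floor of 3 UMIs over the group). *VAChT* then had 84 UMIs against 6, and *ChT* 55 against 4. The rim level of *ChAT* was then 102, 92.4, 113 and 75.8 CPM, lower than before in the female library and about the same in the males. Together the 19 rim cells with 2 to 4 *hth* UMIs held 279 CPM of *ChAT* and 363 CPM of *VAChT*, against 88.2 and 99.1 CPM in those with 5 or more. Of their 26 *VAChT* UMIs, 17 came from 1 female cell of 20925 UMIs. The part of other neurons in these cells was not tested.

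Of the 8 genes for histamine and acetylcholine that were tested, these 3 rose and none fell by 2-fold (background 1.72% higher and 1.87% lower). *Hdc*, which makes histamine, was at 56.7 to 77.0 CPM in rim cells and 69.0 to 86.6 CPM in the comparison (log2 fold change -0.23 ± 0.20, adjusted p = 0.65). *t* (tan), which recycles it from carcinine, was lower by less than 2-fold (-0.45 ± 0.08, adjusted p = 0.0012). Of 13 genes of synaptic release none passed the limits, with a median of -0.01.

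Of 5 R7 markers tested, *pros* and *CG10407* fell in the rim and none rose (background 1.72% higher and 1.87% lower), with a list median of 0.11. *pros*, the homeodomain protein of R7 cells that represses R8 opsins, was at 126, 84.7, 90.7 and 63.9 CPM in rim cells and 707, 493, 564 and 435 CPM in *hth*-zero *Rh3* cells (log2 fold change -2.61 ± 0.13, adjusted p = 1.2e-09). *CG10407*, on the list of R7 markers, was at 21.0, 0, 0 and 2.28 CPM against 2336, 757, 149 and 4660 CPM (-8.45 ± 0.31). No rim library approached its partner for either gene. The other 3 had log2 fold changes of 0.11 ± 0.19 (*CG13707*, adjusted p = 0.87), 0.68 ± 0.29 (*apn*, adjusted p = 0.20) and 0.32 ± 0.20 (*Lgr1*, adjusted p = 0.46). *salm*, a zinc finger protein shared by R7 and R8, was slightly higher (0.47 ± 0.11, adjusted p = 0.0091), and its paralog *salr* had a log2 fold change of 0.11 ± 0.15 (adjusted p = 0.91).

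Both genes of the pale and yellow switch differed from their level in *hth*-zero *Rh3* cells. In R8 cells *melt* promotes *Rh5* and *wts* promotes *Rh6*, and each represses the other. No UMI of *melt* was found in any of the 4 rim sums, against 92.9, 58.5, 32.5 and 51.2 CPM in *hth*-zero *Rh3* cells from 340 UMIs in all, so *melt* was at least 20.4-fold lower (floor of 3 UMIs over the group; adjusted p = 1.2e-05). *wts*, a kinase of the Hippo pathway, was at 138, 100.1, 125 and 59.3 CPM against 46.1, 18.4, 25.7 and 25.8 CPM (1.69 ± 0.24, adjusted p = 1.6e-04). Of 14 genes of inner photoreceptor fate, 7 were tested, and *wts* alone rose and *pros* and *melt* fell (background 1.72% higher and 1.87% lower). The list's median was -0.15, also with *melt* at its bound.

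Among further regulators, *elB* and *noc*, zinc finger proteins known from the specification of inner photoreceptors, both rose. *elB* was at 306, 223, 351 and 210 CPM against 69.4 to 102 CPM (1.63 ± 0.16, adjusted p = 2.2e-06). *noc* was at 117, 69.3, 125 and 169 CPM against 27.1 to 58.7 CPM (1.57 ± 0.19, adjusted p = 3.5e-05). Of the list of 9 dorsal eye genes that holds *hth*, 2 besides *hth* passed the filter, *exd*, the Hth partner, at -0.20 ± 0.23 (adjusted p = 0.75) and *bi* at -1.05 ± 0.43 (adjusted p = 0.18). The Iroquois gene *caup* had no UMI in the rim and 50 in *hth*-zero *Rh3* cells, so it was at least 3.00-fold lower, without a test in this contrast. In the rim cells richer in R7 than R8 genes *caup* and *bi* were tested and fell (adjusted p = 0.030 for each). *ara* and *mirr*, its relatives, had mean levels of 2.25 and 19.7 CPM in the rim and 5.20 and 13.8 CPM in the comparison. Of 3 retinal determination genes tested, *toy* (-1.58 ± 0.30, adjusted p = 0.0022) and *eyg* (-2.42 ± 0.41, adjusted p = 8.5e-04) fell (background 1.87%). *toe*, the close relative of *eyg*, fell too (-2.07 ± 0.61, adjusted p = 0.047).

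Of 25 phototransduction genes tested, *trpl* fell by 2-fold and none rose (background 1.87% lower and 1.72% higher), and the median was -0.05. At an adjusted p under 0.05 alone, 2 were higher and 6 lower (background 4.13% and 3.95%), the 6 being *trpl*, *rtp*, *Cam* (calmodulin) and the G protein subunits *Galphaq*, *Gbeta76C* and *Ggamma30A*. *trpl*, one of the light-gated cation channels, was at 1189, 531, 499 and 910 CPM in rim cells and 2458, 1521, 1287 and 1928 CPM in *hth*-zero *Rh3* cells (-1.23 ± 0.09, adjusted p = 4.8e-08). *Galphaq*, the G protein subunit that opsins activate, was at 2560, 2002, 1564 and 3358 CPM against 4694, 4034, 2828 and 5289 CPM, lower in each library though short of 2-fold (-0.86 ± 0.06, adjusted p = 8.1e-08). *Gbeta76C* and *Ggamma30A* differed by -0.24 ± 0.06 and -0.21 ± 0.05. The other light-gated channel, *trp*, had a log2 fold change of 0.20 ± 0.07 (adjusted p = 0.098), and *norpA*, the phospholipase C, one of -0.01 ± 0.06. *ninaC*, a myosin of the rhabdomere, was higher by 0.43 ± 0.06 and *rdgC*, a rhodopsin phosphatase, by 0.61 ± 0.15. *inaF-C* had 1 UMI in the rim and lay at 25.8 to 106 CPM in the comparison, but it overlaps *inaF-B* on the same strand and its count is uncertain.

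Of 11 genes of voltage-gated and leak channels, *Stacl* and *Ca-alpha1T* fell and none rose (background 1.72% higher and 1.87% lower). *Stacl*, whose product binds calcium channels, was at 33.0, 15.4, 45.3 and 15.97 CPM in rim cells and 406, 361, 321 and 288 CPM in *hth*-zero *Rh3* cells (-3.79 ± 0.22, adjusted p = 4.5e-09). *Ca-alpha1T*, a T-type calcium channel, fell by 1.97 ± 0.22 on the log2 scale. *Cbp53E* (calbindin) and *Rph* (rabphilin), which bind calcium, fell by 3.21 ± 0.43 and 3.26 ± 0.42.

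Cell surface proteins moved both ways. Of 19 adhesion and guidance genes, *Con* and the semaphorin *Sema1a* (1.31 ± 0.21) rose and *klg*, *comm* and *fred* fell (background 1.72% higher and 1.87% lower). *klg* (klingon), an immunoglobulin adhesion protein known from R7 development, was at 87.0, 30.8, 22.7 and 66.2 CPM against 352, 295, 384 and 403 CPM (-2.63 ± 0.22, adjusted p = 4.2e-07). Of 10 genes of the Dpr, DIP, Beat and Side families, *beat-IIb* (2.53 ± 0.27) and *dpr8* (1.64 ± 0.35) rose and *beat-IIIc* fell (-2.69 ± 0.45), at the same background. The remaining large falls were *Yp1*, a yolk protein, with 1 UMI in the rim and 21.5 to 142 CPM in the comparison (-6.20 ± 0.52), *SPR*, the sex peptide receptor (-3.67 ± 0.53), and the less known *CG14495*, *CG42663* and *CG13685* (-5.12 ± 0.65, -3.83 ± 0.64 and -3.38 ± 0.49).

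Translation genes were the largest group to move slightly. *RpL41* was at 4695, 7223, 7719 and 5484 CPM in rim cells against 1659, 2449, 2172 and 2226 CPM (1.53 ± 0.07, adjusted p = 3.0e-10). It was the only one of 83 ribosomal protein genes past 2-fold, but 40 were higher and 0 lower at an adjusted p under 0.05 alone (background 4.13% and 3.95%), with a median of 0.25. Among rim cells richer in R7 than R8 genes (the R7 side, set out further on), 3 of 84 were higher and 0 lower at that limit, with a median of 0.10. Of 57 nuclear genes of oxidative phosphorylation and 12 mitochondrial genes, none passed the limits, with medians of 0.05 and 0.08. The same held for the clock, where *tim* (0.89 ± 0.24, adjusted p = 0.029) and *cry* (-0.86 ± 0.25, adjusted p = 0.042) stayed under 2-fold.

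Since the rim sums may mix R7 and R8 cells while *hth*-zero *Rh3* cells are nearly all R7, rim cells were also set against *hth*-zero *Rh4*, *Rh5* and *Rh6* cells. This was chosen after seeing the data, and the 4 comparisons share the rim sums. Against *Rh4* cells 65 genes were higher and 67 lower (2.06% and 2.12% of those tested), against *Rh5* cells 49 and 32 (3.02% and 1.97%), and against *Rh6* cells 84 and 89 (2.49% and 2.64%).

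Acetylcholine genes in the rim were close to their level in R8 cells and well above that in *Rh4* cells. *ChAT* averaged 102 ± 8.89 CPM (SD, n = 4) in rim cells, 113 ± 44.1 in *Rh5* and 125 ± 33.3 in *Rh6* cells, but 6.27 ± 3.26 in *Rh4* cells. Against *Rh5* and *Rh6* cells its log2 fold changes were -0.16 ± 0.23 (adjusted p = 0.74) and -0.31 ± 0.18 (adjusted p = 0.36). For *ChT* they were 0.97 ± 0.37 (adjusted p = 0.11) and 0.35 ± 0.25 (adjusted p = 0.49). *VAChT* was lower than in *Rh6* cells by less than 2-fold (-0.68 ± 0.17, adjusted p = 0.0088).

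*pros* lay between R7 and R8 levels. It averaged 91.3 ± 25.9 CPM in rim cells, 550 ± 117 in *Rh3* and 465 ± 78.3 in *Rh4* cells, and 9.27 ± 9.20 in *Rh5* and 4.20 ± 2.65 in *Rh6* cells. The rim level exceeded the last pair by 3.44 ± 0.43 (adjusted p = 3.6e-05) and 4.57 ± 0.36 (adjusted p = 1.5e-08). A smaller number of R7 cells in the sum and less *pros* RNA per cell cannot be told apart from sums alone.

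Further genes differed among the opsin classes. *elB* at 273 ± 67.6 CPM, *noc* at 120 ± 40.8 CPM and *wts* at 106 ± 34.6 CPM in rim cells compared with 322 ± 17.1, 117 ± 34.6 and 103 ± 22.0 CPM in *Rh6* cells, with adjusted p-values of 0.31, 0.89 and 0.97. In *Rh5* cells *elB*, *noc* and *wts* averaged 93.9, 35.3 and 19.3 CPM and in *Rh4* cells 81.6, 40.1 and 57.9 CPM, and the rim was higher in each, for *wts* against *Rh4* cells by less than 2-fold (0.81 ± 0.18). *papi* was at 190 ± 72.0 CPM in the rim and 171 ± 101 CPM in *Rh5* cells (adjusted p = 0.50), against 109 ± 55.3 CPM in *Rh6* and 5.84 ± 4.28 CPM in *Rh4* cells. *melt* was at 0 in every rim, *Rh4* and *Rh6* library and at 96.9 ± 26.8 CPM in *Rh5* cells. *trpl* in rim cells was 782 ± 329 CPM, against 2163 ± 484 CPM in *Rh4* cells (-1.49 ± 0.10). Its levels of 1044 ± 137 CPM in *Rh5* and 1041 ± 259 CPM in *Rh6* cells were nearer (-0.29 ± 0.14, adjusted p = 0.23, and -0.37 ± 0.11, adjusted p = 0.034).

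**Figure D3:**
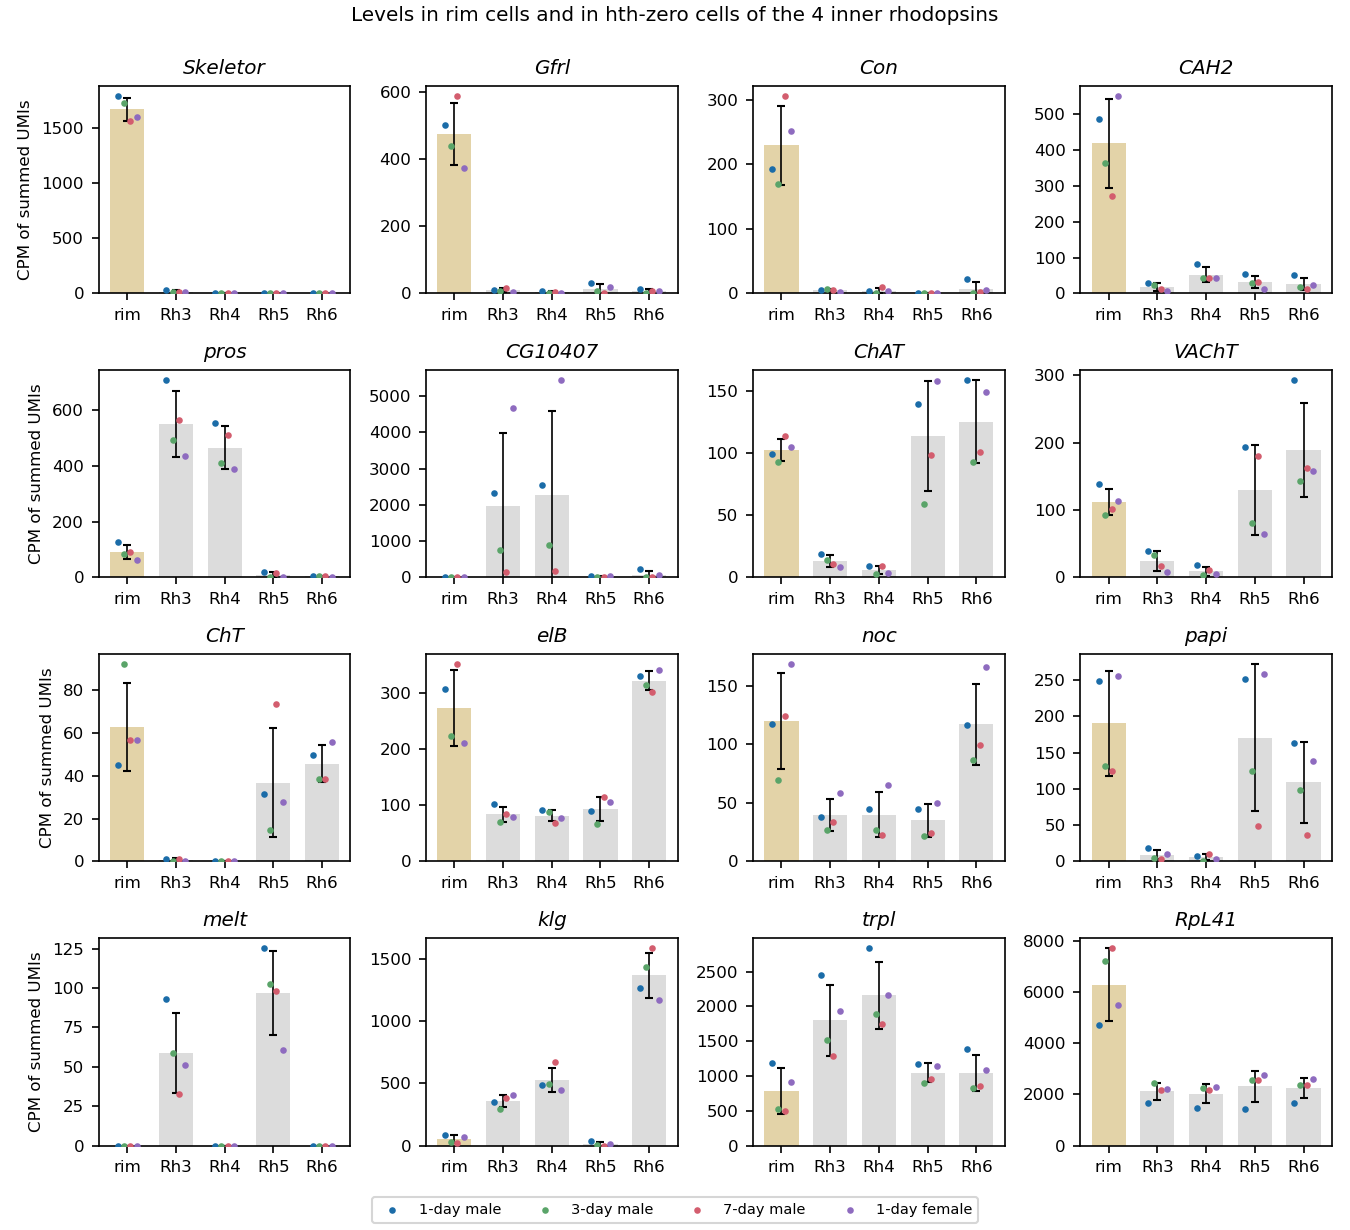
Level in CPM of 16 genes in the rim sums and in *hth*-zero *Rh3*, *Rh4*, *Rh5* and *Rh6* sums, with each vertical axis starting at 0. Points are the 4 libraries, bars their mean and whiskers the SD. *Skeletor*, *Gfrl*, *Con* and *CAH2* are high in the rim alone among these classes, *ChAT*, *VAChT* and *ChT* are nearer to *Rh5* and *Rh6* than to *Rh3* and *Rh4* cells, and *pros* lies between the R7 and R8 classes.

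*Skeletor*, *Gfrl*, *Con*, *CAH2*, *glob1*, *CG30069* and *RpL41* were higher in the rim than in each of the 4 inner classes. *Skeletor* was at 0 in all *Rh6* libraries and had 1 UMI each in the *Rh4* and the *Rh5* libraries. *RpL41* exceeded the *Rh4*, *Rh5* and *Rh6* cells by 1.60 ± 0.09, 1.55 ± 0.11 and 1.501 ± 0.08. *IRSp53*, which links membranes to actin, exceeded the 4 classes by 2.22, 3.12, 2.41 and 2.01 in the order *Rh3*, *Rh4*, *Rh5* and *Rh6*. *Stacl*, *Ca-alpha1T*, *comm*, *beat-IIIc* and *flw* (a protein phosphatase 1 subunit) were lower than in each class. *Stacl* differed by -3.79, -4.12, -3.02 and -3.87, and *flw* by -1.59, -1.53, -1.67 and -1.37. *klg* was lower than in *Rh3*, *Rh4* and *Rh6* cells (-2.63, -3.05 and -4.30), and *Rh5* cells, too, held little of it, at 12.9 CPM.

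**Figure D4:**
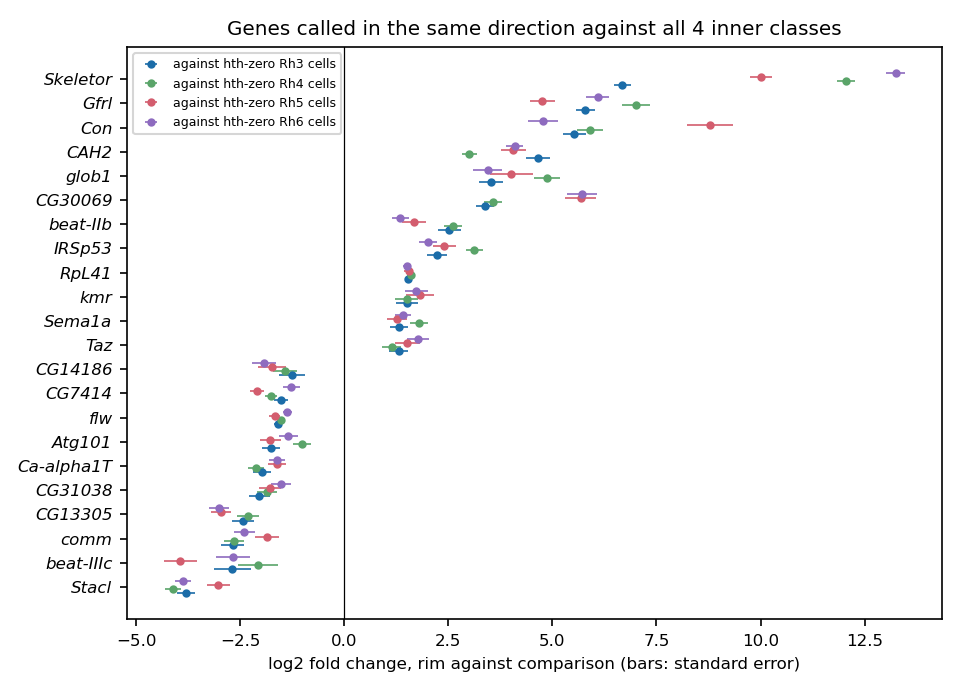
Log2 fold change of the rim sums against *hth*-zero *Rh3*, *Rh4*, *Rh5* and *Rh6* cells (horizontal axis, bars: standard error) for the genes past the limits in the same direction in all 4 comparisons, which share the rim sums. The folds of *Skeletor* against *Rh6* and of *Con* against *Rh5* cells are set against sums of 0 and are fitted values, not bounds.

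Within single rim cells, *pros* occurred together with *VAChT* or *ChT*, genes of the R7 and the R8 list. A *pros* UMI was found in 44 of 115 rim cells (38.3%) and a *VAChT* or *ChT* UMI in 74 (64.3%). Both were found in 34 cells, *pros* alone in 10, *VAChT* or *ChT* alone in 40 and neither in 31. In *hth*-zero *Rh3* cells 75.3% had *pros* and 2.87% had *VAChT* or *ChT*, whereas in *hth*-zero *Rh6* cells the shares were 1.86% and 49.0%. R1-6 cells, which should lack both, gave 0.980% and 1.71% at a median depth of 4986.5 UMIs, against 7687 UMIs in rim cells. The rim cells with 5 or more *hth* UMIs had both in 33 of 96. These joint counts are not matched for depth, as the median was 4608.5 UMIs in *hth*-zero *Rh3* cells and 3622 in *hth*-zero *Rh6* cells. Whether *pros* and *VAChT* or *ChT* met in the same rim cells more often than their separate shares would give was not tested. Of the other R8 genes, *Lim3* had no UMI in the rim, *sens* had 1, and *CG2082* was at 18.01, 0, 0 and 237 CPM, high in the female library alone (2.26 ± 0.71 against *hth*-zero *Rh3* cells, adjusted p = 0.064). With *pros* set against *sens*, *CG2082* and *Lim3* alone, 5 of the 115 rim cells fell on the R8 side, 44 on the R7 side and 66 on neither.

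Thinned to 2000 UMIs per cell, 103 rim cells remained, with 12 left out, and 11.7% had *pros* and 30.1% had *VAChT* or *ChT*. The 651 remaining *hth*-zero *Rh3* cells, with 255 left out, gave 61.6% and 2.30%. The 646 *Rh6* cells gave 0.774% and 32.7% with 323 left out, and the 118 *Rh5* cells 1.69% and 33.1% with 58 left out. Rim cells with 5 or more *hth* UMIs, thinned apart, gave 14.7% and 25.3%. By library their *VAChT* or *ChT* share was 28.6%, 23.5%, 42.1% and 8.33%, against 43.9%, 27.9%, 26.6% and 29.6% of *Rh6* cells. At matched depth and pooled over libraries, the rim cells thus had *VAChT* or *ChT* nearly as often as R8 cells and *pros* less often than R7 cells, without a test. Each group was thinned in a single random draw. The same 19 rim cells of the 7-day males gave 26.3% when drawn with all rim cells and 42.1% when drawn apart. The shares by library, among them the female one from 2 of 24 cells, are thus not read as differences. Not thinned, the female rim cells with 5 or more *hth* UMIs had *VAChT* or *ChT* in 79.2%, against 63.1% of the shallower female *Rh6* cells.

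**Figure D5:**
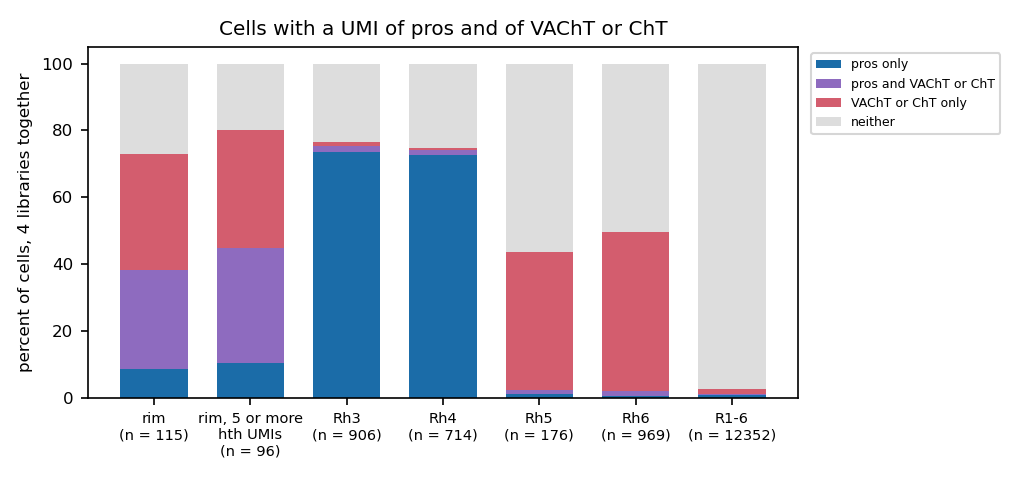
Share of cells in percent (vertical axis, 4 libraries together) with a UMI of *pros*, of *VAChT* or *ChT*, of both or of neither, by cell group, not thinned. Rim cells hold both in 34 of 115 cells, while cells with both are rare in the *Rh3*, *Rh4*, *Rh5*, *Rh6* and R1-6 groups.

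The rim cells could be divided only in part into an R7 and an R8 side. A cell was put on the R7 side when its UMIs over 6 R7 genes (*pros*, *CG13707*, *CG10407*, *CG15143*, *apn* and *Lgr1*) outnumbered those over 8 R8 genes (*CG2082*, *sens*, *Lim3*, *CG14490*, *topi*, *ChT*, *VAChT* and *side-VI*), and on the R8 side when they were fewer. This gave 33, 11, 10 and 25 rim cells on the R7 side and 3, 2, 5 and 4 on the R8 side, with 5, 7, 7 and 3 on neither. Of the 115 cells, 44 lay within 1 UMI of the boundary, so the sides are ranges of a score and not types. By this score 84.9% of the sided rim cells were on the R7 side, against 97.9% of *hth*-zero *Rh3* cells and 4.70% of *hth*-zero *Rh6* cells. The R8 part of the eye's rim is known to equal its R7 part in number, since each ommatidium has both.

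On the R7 side, rim cells again stood apart from *hth*-zero *Rh3* cells of the same side, with 54 genes higher and 85 lower of 5155 tested (1.05% and 1.65%). The genes of the gate and of the score were not counted. *CG14688*, *Gfrl*, *Skeletor*, *Con* and *AdoR* rose most, with log2 fold changes of 7.62 ± 0.51, 7.58 ± 0.45, 7.06 ± 0.26, 6.54 ± 0.45 and 6.12 ± 0.75. *Con* was at 222, 242, 270.2 and 274 CPM in the R7-side rim sums and at most 4.54 CPM in their partners. *CG9394*, *melt*, *Sytalpha*, *CG15236* and *TwdlG* had the lowest fitted values, which are no measure of rank since each had no UMI in the 4 R7-side rim sums. *CG9394* was at 121, 48.9, 31.5 and 112 CPM in the comparison, whereas *TwdlG* was at 5.82 to 16.2 CPM. Of 9 histamine and acetylcholine genes tested on this side, *ChAT* alone rose past 2-fold and none fell, while *VAChT* and *ChT* belong to the score. Of 28 phototransduction genes, *Galphaq* and *trpl* fell past 2-fold and none rose.

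On the R8 side a single rim sum reached the minimum of 5 cells, that of the 7-day males with 21932 UMIs, so the contrast with *hth*-zero *Rh6* cells of the R8 side rests on it and borrows its spread from the other groups. It gave 4 genes higher and 17 lower (0.0776% and 0.33% of 5155), with a median log2 fold change of -2.34 over all genes, so falls in this contrast are not read gene by gene. *Skeletor* had 29 UMIs (1322 CPM), *Gfrl* 13 (593 CPM), *CG14688* 4 (182 CPM) and *Ank* (ankyrin) 12 (547 CPM) in these 5 cells. When a side required an excess of at least 2 UMIs, 1 rim cell of the 7-day males stayed on the R8 side. By *pros* against *sens*, *CG2082* and *Lim3*, 0 did, so these 5 cells are not a secure R8 group. *Skeletor* was at 0 in each R8-side *Rh6* sum. With sums of at least 2 cells, an alternative chosen after seeing the data, 58 genes were higher and 91 lower. The rim effect on the R7 side minus that on the R8 side passed the limits for 5 genes in the positive and 1 in the negative direction (0.097% and 0.0194% of 5155), with a median of 1.87 over all genes.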

How the data were processed

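The authors deposited whole-number UMI counts for each gene in each barcode, and the submitters' processing notes name Cell Ranger 6.0.1 and dm6. They precede any correction for free RNA and any removal of cells, and no column was left unmatched. The members, lists and tests were chosen with earlier results of these data known.

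Counts were summed per library and cell group and tested in edgeR 4.0.16 (TMM, filterByExpr, quasi-likelihood test with Benjamini-Hochberg adjustment over all genes tested) in R 4.3.3, with library as a block because each library gives both groups. Every adjusted p here is from this test. On data simulated for the main contrast with 200 genes changed 4-fold, 180 were recovered with 4 false calls, and for the R8 side 22. The simulated libraries shared a pooled profile and a common dispersion and differed in depth alone. Genes of very low level were not among those changed, so recovery in the real data may be lower. A sum needed at least 5 cells. Genes named are those of the gate, *Skeletor*, the 12 largest rises and 12 largest falls with the same direction in 4 libraries (5 each by side), the 5 smallest adjusted p of the difference between sides, and members of the lists. Others (*toe*, *elB*, *noc*, *CG6465*, *IRSp53*, *flw* and the *hth* neighbours) were named after their values were seen. Doublets were scored with scrublet in scanpy 1.11.5, whose automatic threshold marked 0 cells in 2 libraries. Cells with the highest scores, 0.8% per 1000 barcodes, were left out in an alternative. Of the rim cells 4 were among them. Sums of counts in CPM are relative to all UMIs of the group. Alternatives varied the gate, the comparison cells, scaling (RLE), filter, tool (DESeq2 1.42.0), block, 5% free RNA and each library. Positions are from Ensembl release 115.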

Additional observations from a re-analysis of the deposited data

Results flagged for a closer look

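In 2 named genes a single library lay far from the other 3 in its log2 ratio of rim to *hth*-zero *Rh3* cells, by Dixon's test at the 95% level, which chance meets in about 1 group of 20. The ratio of *Yp1* was -5.38 in the 1-day female library, and that of *beat-IIIc* was -5.33 in the 1-day male library. Both genes have few UMIs in the rim sums.

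The difference of the rim effect between the R7 and the R8 side was tested in the same fit, and the 5 genes with the smallest adjusted p are given. Its median over all genes was 1.87, and the R8 side rests on 5 cells of the 7-day male library. Only 1 of these cells had an excess of at least 2 UMIs of R8 genes. The differences in log2 fold change were 2.97 for *pinta*, -2.89 for *Ank* and 4.78 for *papi*. Those of *14-3-3epsilon* (2.17) and *Cyt-c-p* (1.92) were about as large as the median over all genes and are not read as differences between the sides. *pinta*, a retinoid-binding protein, had 821 CPM in the R8-side rim cells, 280 to 1019 CPM on the R7 side and 3834 to 7864 CPM in R8-side *Rh6* cells. R7-side *hth*-zero *Rh3* cells held 588 to 1311 CPM of it. The difference of *pinta* includes a fall on the R8 side (-3.87), where falls are not read gene by gene. *Ank* had 547 CPM in the R8-side rim cells and 40.4 to 117 CPM in those of the R7 side. *papi* had 1 UMI in the R8-side rim sum.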

How the results depend on the processing

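No result reversed. For rim against *hth*-zero *Rh3* cells the counts stayed within 1.5 times of 57 higher and 62 lower except for 137 higher and 131 lower with no fold limit, 32 lower with *Rh5* cells as comparison, 145 lower without the filter, and 34 lower without the block for library (replicate block), where 39 were higher. Leaving out each library gave 50 to 59 higher and 52 to 63 lower. With every library left out in turn, 37 and 38 genes remained called each time. The genes called changed more than the counts. Of the 57 higher and 62 lower genes, DESeq2 kept 53 and 43, and the fit without the block kept 39 and 34. Over every alternative that kept *hth*-zero *Rh3* cells as comparison, 33 and 28 remained called. Most of the named genes below were picked for large changes in the same direction in all 4 libraries, which favours their stability. Of the values of 33 named genes, 616 of 617 kept direction and side of the threshold, the exception being *toy* without the block (-1.46, adjusted p = 0.10). Without cells holding *fne*, *repo* or *moody*, the fitted log2 fold change rose to 9.13 for *ChAT* and 6.13 for *VAChT*.

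On the R7 side the lower count of 85 became 50 with sums of at least 2 cells, 175 without the filter, 56 by DESeq2 and 37 without the block, and 60 to 69 (higher 42 to 53) without each library. On the R8 side the higher count of 4 became 7 without *fne*, *repo* or *moody* cells, 58 with sums of at least 2 cells, 8 without the filter and 1 by DESeq2. The lower count of 17 became 10 with 5 or more *hth* UMIs, 11, 91, 54 and 6 in those 4 settings, 5 with RLE factors and 2 without the block. The difference between sides, 5 higher and 1 lower, became 47 and 38 with sums of at least 2 cells, 23 and 4 without the filter, 10 and 3 by DESeq2, and 0 and 0 by edgeR without the block (221 genes at an unadjusted p under 0.05). Its lower count was 3 without *fne*, *repo* or *moody* cells. Leaving out a library gave 3 to 6 higher and 4 to 23 lower on the R8 side and 2 to 7 and 1 to 2 for the difference, with no value without the 7-day males, whose rim cells are the only sum. The cause was not tested. At 7 days rim cells were 0.367% of kept cells (22 of 6001). With cells under 2000 UMIs left out and the *Rh3* cells thinned to that depth, they were 0.603% (18 of 2985), a share over fewer kept cells. The R7 share of sided rim cells at 7 days was 100% by *pros* against *sens*, *CG2082* and *Lim3*, against 66.7%.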
